A study of Mus musculus with 8 samples.

Results

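The sterol list examined here held 29 genes, 20 enzymes on the route from acetyl-CoA to cholesterol and 9 genes around the transcription factor SREBP2. They were picked by gene symbol, and all 29 had a row among the 15867 genes of the deposited table. The samples were primary macrophages carrying the surface marker F4/80, taken from the adipose tissue of obese mice fed a high-fat diet for 20 weeks, and their poly(A) RNA was sequenced. The control group (n = 4) had the genotype Mirc11fl/fl Mirc22fl/fl Lyz2+/+, so it carried the floxed alleles of both microRNA clusters but no Cre. The knockout group (n = 4) was Mirc11fl/fl Mirc22fl/fl Lyz2Cre/Cre, in which Cre recombinase, placed in the Lyz2 gene and active in cells of the myeloid lineage, removes both clusters. Mirc11 and Mirc22 encode the microRNAs miR-23, miR-27 and miR-24. Cre, the loss of Lyz2 and the loss of the clusters came together in these groups, and no group had Cre with intact clusters, so the 3 cannot be told apart. The labels used here give no age or sex and do not say whether a sample was 1 mouse or a pool, so each p-value reflects the scatter among these 8 libraries, part of which may be technical.

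The libraries held 31789395 to 46621080 recovered reads, and the 8 behaved as separate libraries. Lyz2, the site of the Cre insertion, averaged 175874 ± 22446 normalized counts in controls (SD, n = 4) and 208 ± 45.0 in knockouts, which fits all 8 labels. Adgre1, which encodes F4/80, was abundant in both groups (47340 ± 7761 and 40553 ± 2504). The summed level of 20 general macrophage genes lay between 525022 and 743140 in controls and between 454931 and 483089 in knockouts, without overlap. In bulk RNA, fewer cells of a type and less RNA per cell cannot be told apart. All values below are normalized counts, and each difference is the knockout mean minus the control mean of log2(normalized count + 1), tested with limma and Benjamini-Hochberg adjustment over 15862 genes at a threshold of 0.05.

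Cholesterol is built from acetyl-CoA through mevalonate, the isoprenoids isopentenyl and farnesyl diphosphate, squalene and lanosterol. SREBP2, made from Srebf2, is the main transcription factor of these enzymes: it is held in the endoplasmic reticulum with its escort SCAP by the INSIG proteins when sterols are plentiful, and travels to the Golgi to be cut by 2 proteases, encoded by Mbtps1 and Mbtps2, when they are scarce. The freed fragment enters the nucleus and binds sterol regulatory elements in the promoters of the enzyme genes and of its own gene. Macrophages take up lipid from dying adipocytes, and sterol load is a classic input to this switch.

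Of the 29 genes, 6 fell in the knockout (Srebf2, Sqle, Fdps, Dhcr7, Lss and Cyp51), 1 rose (Erlin2) and 22 did not pass the test; when the libraries were scaled instead to the general macrophage genes, 0 passed as lower and 5 as higher. On that macrophage scale 0.372% of all genes tested were called lower and 28.5% higher. On the deposited scale 2.38% of all genes were called lower (377 of 15862) and 1.24% higher (196). The 29 differences ran from -0.71 to 0.28 with a median of -0.21, against a median of 0.00 for all genes, whose quartiles were -0.12 and 0.17. The difference was below 0 for 24 of the 29, and for 49.5% of all genes. In 13 of the 29 every knockout library lay below every control library, which was so for 8.21% of all genes, and in 1 every knockout library lay above, which was so for 5.52%. With each library scaled to the same total these counts were 7 below (4.79% of all genes) and 2 above (8.75%), and with scaling to the general macrophage genes 0 below (0.334%) and 8 above (38.6%). Without adjustment, 15 of the 29 were lower and 1 higher at 0.05, against 10.4% and 10.8% of all genes.

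edgeR on the recovered reads called the same numbers, 6 lower and 1 higher, with 2.31% and 1.2% of all genes. The authors' deposited DESeq2 table called 11 lower and 1 higher, against 6.23% and 4.65% of the 14309 genes with an adjusted p, and DESeq2 rerun on the recovered reads called 11 and 1, against 6.23% and 4.66%. With every library scaled to the same total, 5 were lower and 1 higher, against 1.54% of all genes in each direction. Leaving out 1 library at a time left 3 to 5 lower and 0 to 1 higher: 3 without knockout replicate 4, 5 without control replicate 2 or 4, and 4 without any of the other five.

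**Figure D1:**
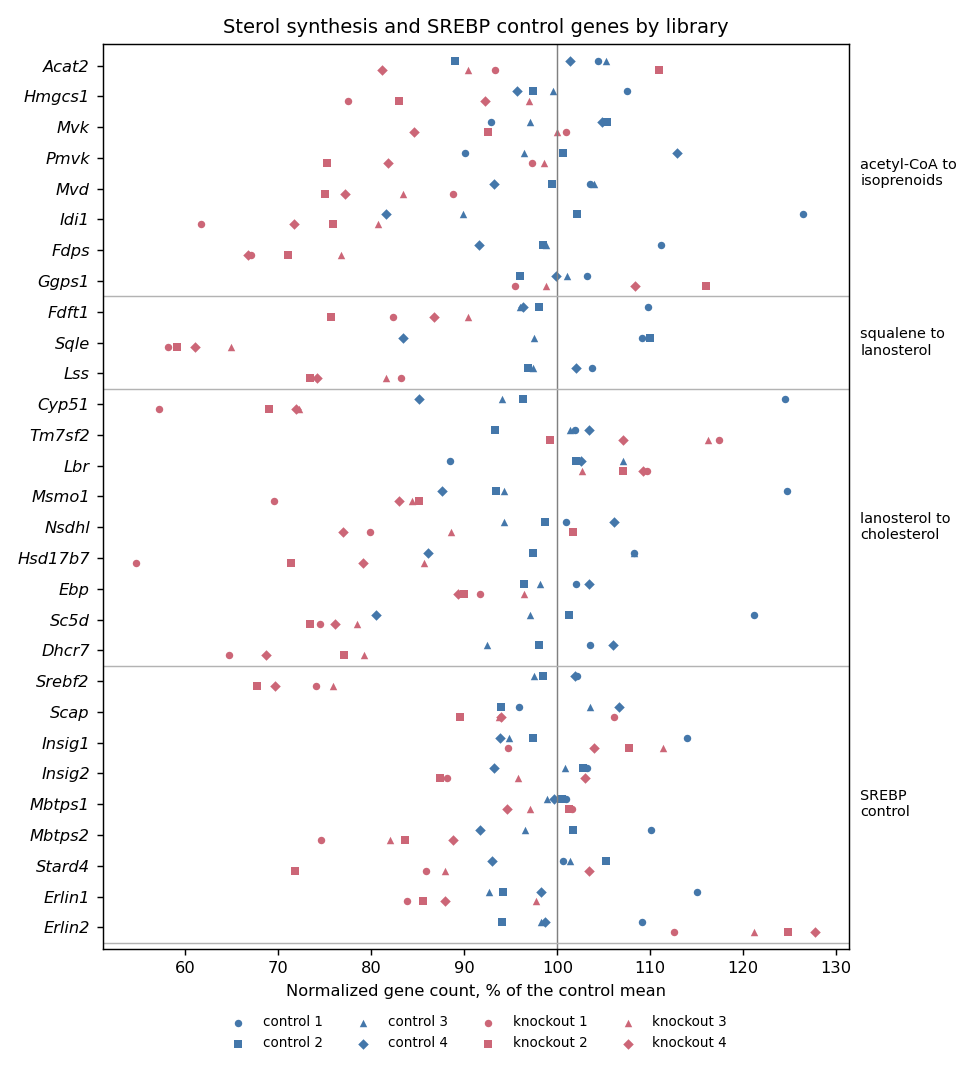
Each of the 29 genes in each of the 8 libraries, as the normalized count in percent of the gene's control mean. Genes are in pathway order, with 1 point per library (4 control, 4 knockout). The knockout points of Sqle, Fdps, Dhcr7, Lss, Cyp51 and Srebf2 all sit below the control points, those of Erlin2 all sit above, and the genes of the first steps overlap; the placement is on the deposited scale, and scaling to the general macrophage genes moves all knockout points up.

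Srebf2, the transcription factor itself, lies at chr15:82147181-82205379 on the plus strand (mm10). Its control libraries held 5597, 5395, 5346 and 5586 normalized counts and its knockout libraries 4059, 3712, 4156 and 3816. The lowest control stood well above the highest knockout library, and within each group the libraries lay close together. The means were 5481 ± 129 and 3936 ± 207, with a log2 difference of -0.48 (SE 0.05, 95% interval -0.59 to -0.36, adjusted p = 0.00357), and the mean fell by 28.2%. It passed in all 8 fits that left out 1 library, with an adjusted p of at most 0.0166. Per kilobase of longest coding transcript it was also the most abundant of the 29 in controls, at 1080 normalized counts per kb, followed by Mbtps1 at 1011 and Insig1 at 910. Scaled to the general macrophage genes, its difference was -0.12 and did not pass, while the median of all genes moved to 0.36.

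The promoter window of Srebf2 is shown because SREBP2 is known to act on its own gene. It comes from RefSeq (GRCm38.p6, chr15:82147019-82147318, plus strand) and runs from 250 bases before the start of transcription to 50 bases after it. Capitals mark the core CACNCCA of a sterol regulatory element and the NF-Y box CCAAT on either strand (ATTGG when read from the other strand), since NF-Y is a known partner of SREBP2.
Srebf2: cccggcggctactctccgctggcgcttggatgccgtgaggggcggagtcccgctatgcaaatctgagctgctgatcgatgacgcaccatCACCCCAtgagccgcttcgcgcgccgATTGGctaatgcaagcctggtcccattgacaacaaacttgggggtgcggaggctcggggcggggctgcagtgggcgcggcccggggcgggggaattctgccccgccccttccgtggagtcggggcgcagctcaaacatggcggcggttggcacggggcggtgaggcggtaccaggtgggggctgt
The core begins at base -161 from the start of transcription, and 1 NF-Y box follows it. The letters describe the window and say nothing of what is bound there in these cells.

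The enzymes from acetyl-CoA to farnesyl and geranylgeranyl diphosphate were 8 genes, of which Fdps fell and 7 did not pass, with a median difference of -0.19 on the deposited scale. Acat2, the cytosolic acetoacetyl-CoA thiolase, averaged 478 ± 35.9 in controls and 450 ± 59.5 in knockouts (difference -0.10, 95% interval -0.34 to 0.14). Mvk, mevalonate kinase, and Pmvk, phosphomevalonate kinase, gave -0.08 and -0.19 with overlapping groups. Ggps1, which makes the 20-carbon isoprenoid used to anchor small GTPases, gave 0.06 (-0.10 to 0.23).

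Hmgcs1, the cytosolic HMG-CoA synthase that commits carbon to mevalonate, is a textbook SREBP2 target. Its libraries held 3014, 2731, 2791 and 2681 normalized counts in controls and 2172, 2327, 2720 and 2587 in knockouts. The groups overlapped, since the third knockout library reached above the lowest control. The difference was -0.20 (SE 0.08, 95% interval -0.37 to -0.02, adjusted p = 0.189). Its promoter is printed because it was the 1 window of the list with the full element TCACNCCAC (RefSeq, GRCm38.p6, chr13:119690101-119690400, plus strand). Capitals mark that element and the NF-Y boxes.
Hmgcs1: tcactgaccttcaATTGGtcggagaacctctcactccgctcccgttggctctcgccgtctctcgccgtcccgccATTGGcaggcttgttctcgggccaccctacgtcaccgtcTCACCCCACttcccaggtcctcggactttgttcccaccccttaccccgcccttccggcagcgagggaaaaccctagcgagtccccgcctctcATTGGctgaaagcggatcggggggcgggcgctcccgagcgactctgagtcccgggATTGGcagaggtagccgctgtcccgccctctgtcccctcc
The element begins at base -137, and 4 NF-Y boxes lie around it.

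Mvd and Idi1, the decarboxylase that forms isopentenyl diphosphate and the isomerase that follows it, had non-overlapping groups but did not pass. Mvd held 487, 468, 489 and 438 in controls and 417, 353, 392 and 363 in knockouts (difference -0.30, SE 0.08, adjusted p = 0.0781). Idi1 held 894, 722, 635 and 577 in controls and 436, 536, 571 and 507 in knockouts (difference -0.45, SE 0.14, adjusted p = 0.115). The lowest Idi1 control and the highest knockout library were nearly level. In the authors' deposited table of their DESeq2 comparison, both had adjusted p-values under the threshold, 0.0234 for Mvd and 0.0333 for Idi1.

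Fdps, farnesyl diphosphate synthase (chr3:89093588-89101959, minus strand), is the branch point to sterols, dolichol, ubiquinone and protein prenylation. Its controls held 1196, 1059, 1063 and 985 normalized counts and its knockouts 722, 764, 826 and 717. All 4 knockout libraries lay below all 4 controls. The means of 1076 ± 87.7 and 757 ± 50.4 gave a difference of -0.51 (SE 0.08, 95% interval -0.68 to -0.33, adjusted p = 0.0128), and the mean fell by 29.6%. It passed in all 8 fits without 1 library (adjusted p at most 0.0470).

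The 3 enzymes from farnesyl diphosphate to lanosterol, Fdft1, Sqle and Lss, form the entry to sterols proper. All 3 had non-overlapping groups, 2 fell (Sqle and Lss), and their median difference was -0.36 on the deposited scale. On that scale 8.21% of all genes were lower without overlap and 2.38% were called lower. Fdft1, squalene synthase, held 604, 540, 529 and 530 in controls and 453, 416, 497 and 477 in knockouts. The first control stood apart above the other three. Its difference was -0.26 (SE 0.08, 95% interval -0.44 to -0.07, adjusted p = 0.120).

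Sqle, squalene epoxidase, a rate-limiting oxygen-dependent step (chr15:59315077-59331192, plus strand), had the difference of greatest size among the 29 on the deposited scale. Controls held 882, 889, 789 and 675 normalized counts and knockouts 470, 478, 525 and 494. The knockouts were closely grouped, and the controls were spread more widely above them. The means were 809 ± 100 and 492 ± 24.3, so that the mean fell by 39.2% (difference -0.71, SE 0.10, 95% interval -0.93 to -0.49, adjusted p = 0.00809). Sqle passed in all 8 fits without 1 library, with an adjusted p of at most 0.0355, and kept a difference of -0.35 when scaled to the general macrophage genes, where it did not pass.

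Lss, lanosterol synthase, which closes the sterol rings (chr10:76531588-76557138, plus strand), held 767, 717, 721 and 755 in controls and 615, 543, 604 and 548 in knockouts. Both groups were narrow and did not overlap. The means of 740 ± 25 and 578 ± 37.2 gave a difference of -0.36 (SE 0.07, 95% interval -0.51 to -0.21, adjusted p = 0.0263). The call held without control replicate 2 or knockout replicate 1 and was lost without any of the other six libraries (adjusted p up to 0.0689).

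The 9 enzymes from lanosterol to cholesterol included 2 that fell, Cyp51 and Dhcr7, and 5 whose knockout libraries lay wholly below the controls, with a median difference of -0.30 on the deposited scale. The shares over all genes were 2.38% called lower and 8.21% wholly below. Cyp51, lanosterol demethylase, the first step after lanosterol (chr5:4081145-4104746, minus strand), held 1601, 1239, 1209 and 1095 in controls and 735, 888, 929 and 925 in knockouts. The first control was the high library and the first knockout the low one, and the groups did not overlap. The means were 1286 ± 219 and 869 ± 91.4 (difference -0.56, SE 0.12, 95% interval -0.84 to -0.28, adjusted p = 0.0451). Cyp51 kept its call without control replicate 4 and lost it without any of the other seven libraries (adjusted p up to 0.111), and its adjusted p was 0.0688 when every library was scaled to the same total.

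Dhcr7, the 7-dehydrocholesterol enzyme of the last step (chr7:143823145-143848410, plus strand), is also known because its substrate is the precursor of vitamin D. Controls held 1027, 973, 917 and 1051 normalized counts and knockouts 642, 765, 785 and 681. The 2 groups were clearly apart. The means of 992 ± 59.7 and 718 ± 68.2 gave a difference of -0.47 (SE 0.08, 95% interval -0.65 to -0.28, adjusted p = 0.0213). The call was lost without control replicate 4 (adjusted p = 0.0527), knockout replicate 1 (0.0538) or knockout replicate 4 (0.0616), and held in the other 5 fits.

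Msmo1, Hsd17b7 and Sc5d did not pass although their groups did not overlap. Msmo1, the C4-methyl oxidase, held 1897, 1421, 1434 and 1333 in controls and 1057, 1295, 1283 and 1263 in knockouts (difference -0.30, SE 0.12, adjusted p = 0.183). Hsd17b7, a ketoreductase of C4 demethylation and the lowest of the 29 per kilobase (81.5 in controls), held 407, 366, 407 and 323 against 206, 268, 322 and 297 (difference -0.47, SE 0.15, adjusted p = 0.115). Its lowest control and highest knockout library were nearly level. Sc5d, the C5 desaturase, held 996, 832, 798 and 662 against 613, 603, 645 and 625 (difference -0.39, SE 0.11, adjusted p = 0.0963), with knockouts that were nearly equal and controls that were not. In the authors' deposited table, Hsd17b7 and Sc5d had adjusted p-values of 0.0452 and 0.0210.

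The other 4 of these enzymes overlapped between groups. Tm7sf2 and Lbr, which encode alternative sterol C14 reductases, gave 0.13 (95% interval -0.06 to 0.33) and 0.10 (-0.05 to 0.25). Lbr is also an inner nuclear membrane protein. Nsdhl, a C4 decarboxylase, gave -0.21 (-0.43 to 0.01), and Ebp, the sterol isomerase, gave -0.12 (-0.24 to -0.01, adjusted p = 0.212). Over all 20 enzymes, 5 fell, 0 rose and 17 had a difference below 0 on the deposited scale, with a median of -0.28. Without adjustment none of the 20 was higher at 0.05, and edgeR and DESeq2 on the recovered reads called none higher. Over all genes 2.38% fell, 1.24% rose and 49.5% had a difference below 0. Unadjusted, 10.8% of all genes were higher, and edgeR and DESeq2 called 1.2% and 4.66% higher.

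**Figure D2:**
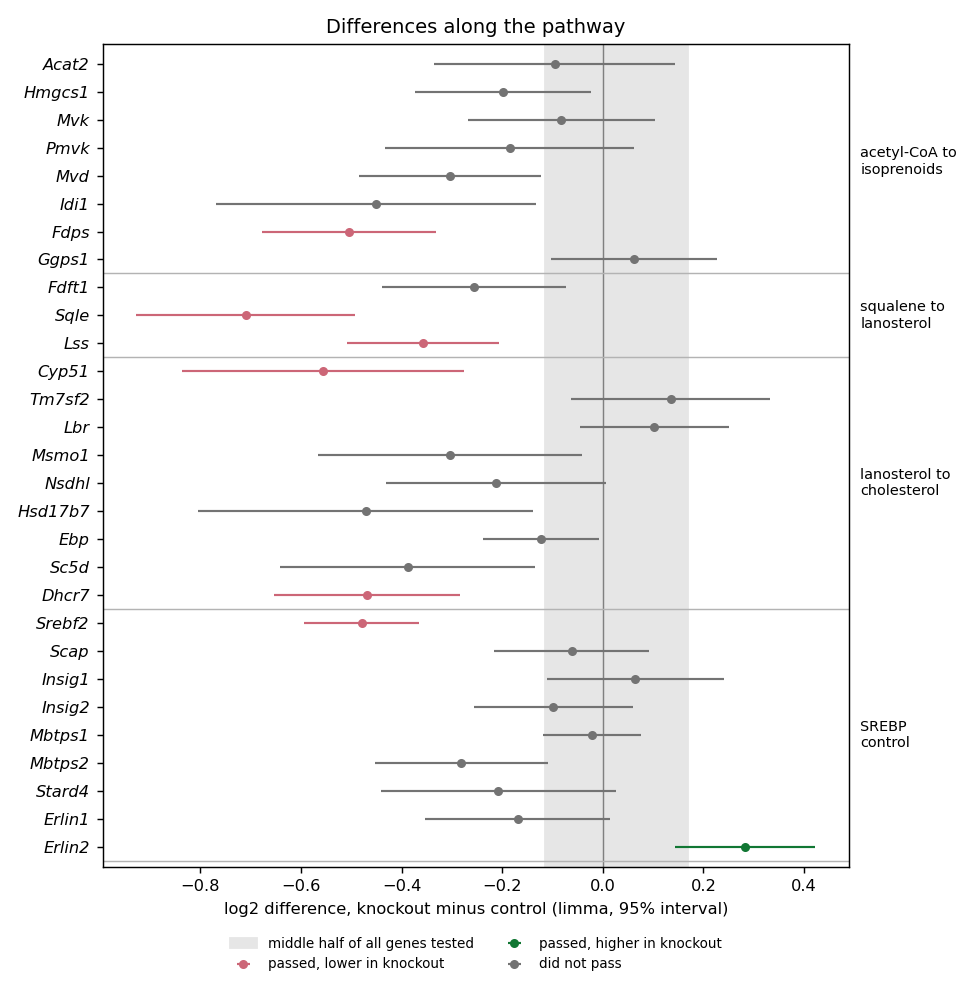
The log2 difference of each of the 29 genes (knockout minus control, deposited scale) with its 95% interval from limma (n = 4 against 4), coloured by whether it passed the test. The intervals are not adjusted for the number of genes tested. Those of 15 genes lie below 0, including the 6 that passed as lower (Sqle, Cyp51, Fdps, Srebf2, Dhcr7 and Lss). That of Erlin2, which passed as higher, lies above 0. Of the 29 points 24 are below 0, a count that was 9 when scaled to the general macrophage genes.

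The genes around SREBP2 numbered 9 with Srebf2, of which Srebf2 fell, Erlin2 rose and 7 did not pass, with a median difference of -0.10 on the deposited scale. Scap, the escort that senses cholesterol, held 2140, 2098, 2310 and 2381 in controls and 2368, 1999, 2093 and 2096 in knockouts. The groups overlapped widely, and the difference was -0.06 (SE 0.07, 95% interval -0.22 to 0.09). Mbtps1, the site-1 protease that makes the first cut, averaged 4382 ± 41.4 in controls and 4321 ± 149 in knockouts (difference -0.02, 95% interval -0.12 to 0.08).

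Mbtps2, the site-2 protease that makes the second cut within the membrane, held 1453, 1342, 1273 and 1210 in controls and 984, 1103, 1082 and 1171 in knockouts. The groups did not overlap, although the highest knockout library came close to the lowest control. The difference was -0.28 (SE 0.08, 95% interval -0.45 to -0.11, adjusted p = 0.0816), while the authors' deposited table gave an adjusted p of 0.0199.

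Insig1 and Insig2 hold SCAP in the endoplasmic reticulum, and Insig1 is itself a well-known SREBP target. Insig1 (chr5:28071363-28078662, plus strand) held 2798, 2390, 2328 and 2303 normalized counts in controls and 2325, 2644, 2734 and 2552 in knockouts. The first control was the highest of the 8, and the other controls lay with or below the knockouts. The difference was 0.06 (SE 0.08, 95% interval -0.11 to 0.24, adjusted p = 0.681). Insig2 gave -0.10 (-0.26 to 0.06). Stard4, a carrier that moves cholesterol between membranes, gave -0.21 (-0.44 to 0.03), with 1023, 855, 1047 and 1232 in knockouts against 1198, 1253, 1207 and 1107 in controls.

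Erlin1 and Erlin2 encode partner proteins of the endoplasmic reticulum membrane that bind cholesterol and take part in the sterol-driven degradation of membrane proteins. Erlin2 (chr8:27023261-27040328, plus strand) held 3128, 2698, 2817 and 2829 in controls and 3229, 3578, 3476 and 3663 in knockouts. Every knockout library was above every control, and the nearest pair was the first library of each group. The means of 2868 ± 183 and 3486 ± 188 gave a difference of 0.28 (SE 0.06, 95% interval 0.14 to 0.42, adjusted p = 0.0432), a rise of 21.6%. The call held without control replicate 1 and was lost without any of the other seven libraries (adjusted p up to 0.114). Erlin1 held 1882, 1542, 1516 and 1607 in controls and 1372, 1400, 1600 and 1439 in knockouts, with overlap, and gave -0.17 (95% interval -0.35 to 0.02, adjusted p = 0.272).

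The library averages of the list separated the groups on the deposited scale. Relative to the control mean, the mean log2 level over the 29 genes was 0.09, -0.02, -0.02 and -0.05 in the controls and -0.27, -0.23, -0.15 and -0.22 in the knockouts. For the 3 enzymes from farnesyl diphosphate to lanosterol it was 0.11, 0.02, -0.04 and -0.09 against -0.44, -0.53, -0.35 and -0.45. For the 9 SREBP genes it was 0.08, -0.02, -0.02 and -0.04 against -0.14, -0.16, -0.07 and -0.06. Control replicate 1 was the highest control for 16 of the 29 genes, against 31.5% of all genes tested. Knockout replicate 3 was the highest knockout for 14, against 21.8% of all genes. Control replicate 1 was also the most deeply sequenced library, at 46621080 recovered reads.

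**Figure D3:**
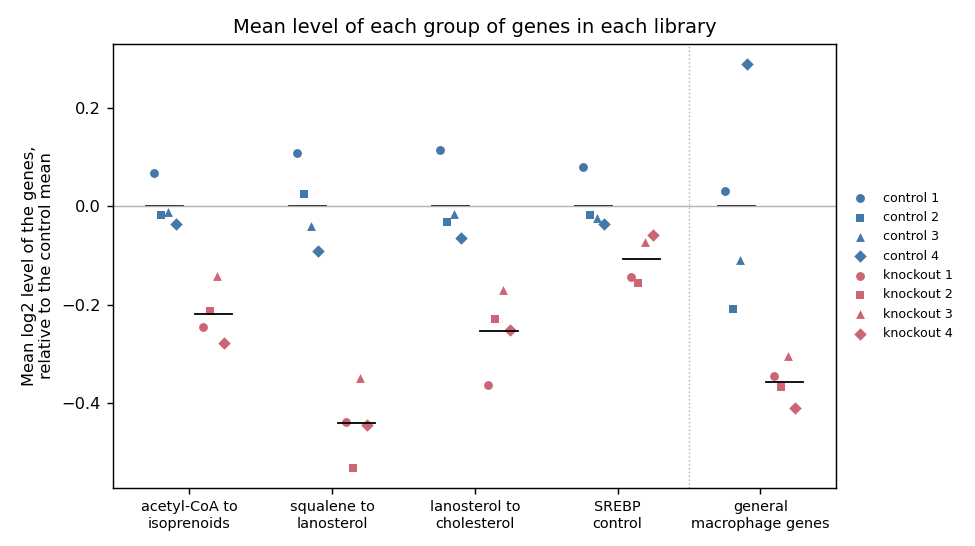
Mean log2 level relative to the control mean in each library, with 1 point per library (4 control, 4 knockout). The 4 groups of genes along the pathway are followed, right of the dotted line, by the general macrophage genes. These macrophage genes lie between -0.21 and 0.29 in controls and between -0.41 and -0.30 in knockouts. Among the 4 pathway groups the gap is widest for the enzymes from farnesyl diphosphate to lanosterol, where knockouts lie between -0.53 and -0.35. It is narrowest for the SREBP genes, where knockouts lie between -0.16 and -0.06. Scaling to the general macrophage genes raises all knockout points.

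The macrophage genes as a group were also lower in the knockouts on the deposited scale. Of the 20 general macrophage genes 7 fell (Cybb, Itgam, Csf1r, Cd68, Mpeg1, Msr1 and Ptprc) and 0 rose by limma and by edgeR, with a median difference of -0.32. DESeq2 called 12 of the 20 lower. Without 1 library limma called 2 to 8 of them lower, with 2 without knockout replicate 1 and 3 without control replicate 3 or knockout replicate 4. The shares of all genes called lower were 2.38% by limma, 2.31% by edgeR and 6.23% by DESeq2. Without 1 library limma called 112 to 313 of all genes lower. Within the controls, replicate 2 had the lowest macrophage level (-0.21 relative to the control mean) and replicate 4 the highest (0.29), while the 29 genes averaged -0.02 and -0.05 in these libraries. Scaled to the general macrophage genes, the median of all genes became 0.36, with 0.372% of all genes called lower and 28.5% higher, and the median of the 29 became 0.15. This scaling moves every gene by nearly the same amount, so the gap between the list and all genes is kept by construction. On that scale 5 of the 29 passed as higher (Ggps1 0.42, Tm7sf2 0.49, Lbr 0.46, Insig1 0.42 and Erlin2 0.64), and 9 had a difference below 0 (Idi1, Fdps, Sqle, Lss, Cyp51, Hsd17b7, Sc5d, Dhcr7 and Srebf2), none of them passing.

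**Figure D4:**
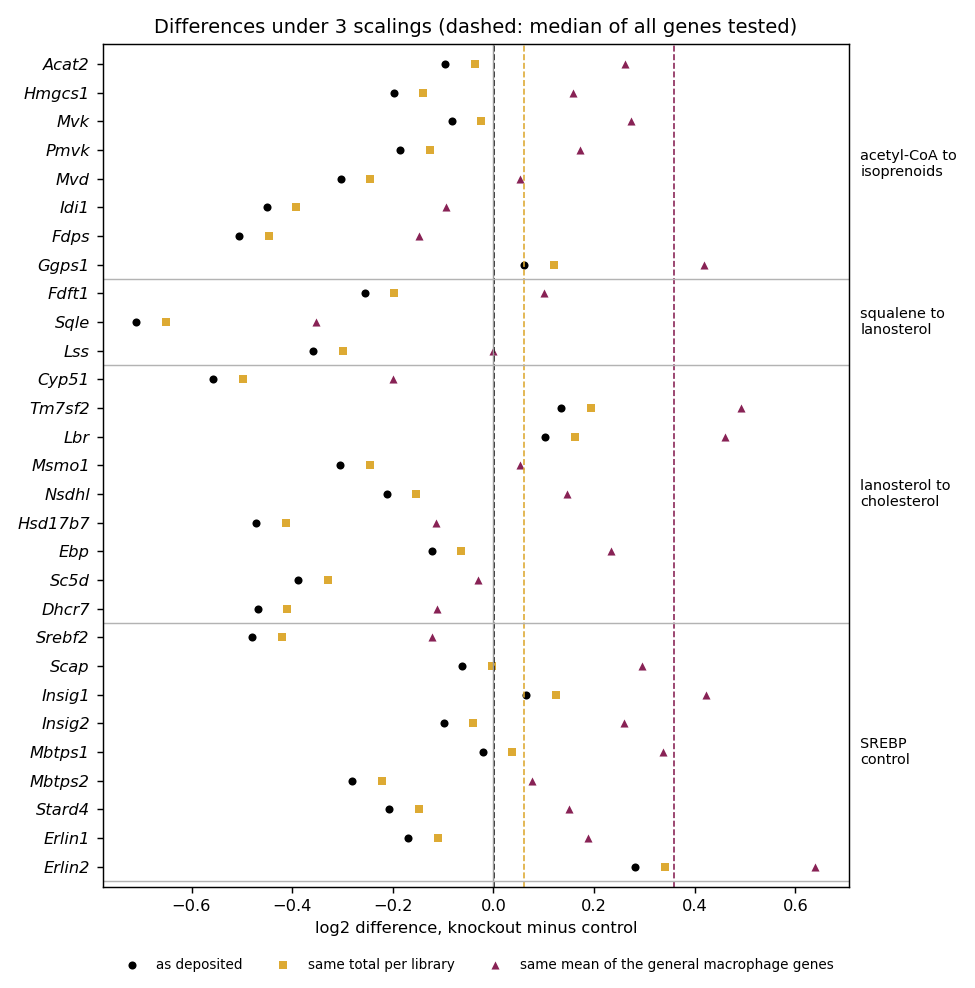
The log2 difference of each of the 29 genes under different scalings of the libraries (as deposited, same total, general macrophage genes). Dashed lines mark the median of all genes tested. The median of the 29, not drawn, is -0.21, -0.15 and 0.15 and that of all genes is 0.00, 0.06 and 0.36. The direction of the list against 0 thus flips under the last. With quantile scaling, also not drawn, these medians are -0.23 and -0.01. Scaling to the same total or to the macrophage genes moves the list and all genes by nearly the same amount.

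Markers of other cells were measured beside these genes. The summed dendritic cell markers were 1271 to 1870 in controls and 2332 to 2681 in knockouts, without overlap. Their mean log2 level overlapped between the groups, with control replicate 4 at 0.38 and knockout replicate 4 at 0.12, and 1 of the 8 markers had groups that did not overlap. Zbtb46, the marker without overlap, gave much of the sum (899 ± 233 and 1386 ± 253). Its highest control (1164) and lowest knockout library (1166) were nearly level. In the controls, its libraries ranked as the summed endothelial and mural markers did. Whether its reads came from dendritic cells was not tested, and the sum without it is not given. The summed ranges of the other lists overlapped: adipocyte 4453 to 6258 against 5982 to 8147, fibroblast 114987 to 190346 against 156501 to 236597, endothelial and mural 75268 to 129706 against 120328 to 164651, B cell 7517 to 17824 against 10047 to 25524, T and NK cell 475 to 1091 against 596 to 1764, and mesothelial 878 to 1435 against 666 to 2269. Neutrophil markers were near 0 beside these, at 79.9 to 93.5 against 81.3 to 93.1, over 4 of the 8 genes of the list. Of all these markers 1 passed by limma and by edgeR, the mesothelial gene Upk1b, which rose by 1.12 and kept its call in 1 of the 8 fits without 1 library, that without control replicate 2. DESeq2 called 12 higher and none lower, in the adipocyte (3), fibroblast (1), endothelial and mural (3), dendritic (2) and mesothelial (3) lists. Over all genes DESeq2 called 4.66% higher and 6.23% lower. The part of these cells and of the macrophage genes in the differences above was not tested.

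Other genes of sterol handling gave the surroundings of the list. Of 9 other known SREBP2 targets 3 fell, of which 2 are described here, while 2.38% of all genes fell. Npc1, which exports cholesterol from lysosomes, averaged 8331 ± 338 in controls and 6926 ± 235 in knockouts (difference -0.27, SE 0.05, adjusted p = 0.0263). Rdh11, a retinol dehydrogenase, averaged 1022 ± 100 and 770 ± 59.9 (difference -0.41, SE 0.09, adjusted p = 0.0403). Acly, which supplies cytosolic acetyl-CoA, averaged 9149 ± 135 and 9767 ± 218 (difference 0.09, adjusted p = 0.246), and the median of the 9 was -0.06. Of 18 genes of sterol storage and transport 2 fell, Npc1 again and Gramd1b, a carrier of plasma membrane cholesterol to the endoplasmic reticulum (2635 ± 201 and 2083 ± 162, difference -0.34, SE 0.07, adjusted p = 0.0421), and the median was -0.12. DESeq2 called 5 of the 18 lower and 2 higher, and limma called 0 at the same total or after quantile normalization. The DESeq2 shares over all genes were 6.23% lower and 4.66% higher. Lipa, the lysosomal acid lipase that frees cholesterol from its esters, gave -0.23 (adjusted p = 0.323). Npc1 kept its call in 1 of the 8 fits without 1 library, that without control replicate 2 (adjusted p otherwise up to 0.0799), Rdh11 in the 1 without control replicate 4 (up to 0.105), and Gramd1b in the 1 without knockout replicate 2 (up to 0.111). At the same total the adjusted p was 0.0547 for Npc1, 0.0712 for Rdh11 and 0.0973 for Gramd1b, and the count of other SREBP2 targets called lower was 1.

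Among the genes that use isoprenoids outside sterol synthesis, 0 of 16 passed by limma or edgeR and 1 by DESeq2, with 3 lower and 1 higher at an unadjusted p under 0.05 by limma. Their median was -0.05, and Dhdds of dolichol synthesis came nearest (-0.20, adjusted p = 0.0921). For comparison with this and the following lists, 10.4% of all genes were lower and 10.8% higher unadjusted by limma. DESeq2 called 6.23% of all genes lower and 4.66% higher. Of 13 genes of the COPII coat that carries SCAP and SREBP to the Golgi, 0 passed by limma or edgeR and 1 by DESeq2 (2 lower and 2 higher unadjusted by limma, median -0.02), with Sec24b at -0.14 (adjusted p = 0.112). Of 12 genes of endoplasmic reticulum ubiquitin ligases and their partners 0 passed by limma or edgeR and 3 by DESeq2 (3 lower and 1 higher unadjusted by limma, median -0.03), with Sel1l at -0.22 (adjusted p = 0.0977). The fatty acid arm under SREBP1 lay on the other side of 0 on the deposited scale, with a median of 0.18 over 10 genes. Of these 0 passed by limma or edgeR, 1 was lower and 2 higher by DESeq2, and 1 was lower and 4 higher unadjusted by limma. Srebf1, the gene of SREBP1, averaged 3230 ± 226 and 3283 ± 248 (difference 0.02, adjusted p = 0.887), and Scd1, the stearoyl-CoA desaturase, gave 0.54 (adjusted p = 0.0772). Of 9 targets of the sterol-sensing receptor LXR, Smpdl3a fell (-0.26, adjusted p = 0.0403), 8 did not pass, and the cholesterol exporter Abca1 gave 0.23 (adjusted p = 0.192). Smpdl3a lost its call without any 1 of the 8 libraries (adjusted p up to 0.109). Scaled to the general macrophage genes, where all genes had a median of 0.36, the medians of the 7 lists were 0.29 for the other SREBP2 targets, 0.31 for the isoprenoid branch, 0.23 for sterol storage and transport, 0.33 for the COPII coat, 0.33 for the ligases, 0.53 for the SREBP1 arm and 0.37 for the LXR targets, and Npc1, Gramd1b, Smpdl3a and Rdh11 no longer passed (0.09, 0.02, 0.10 and -0.05), so that 0 of the other SREBP2 targets were lower there.

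Promoter windows were held for 24 of the 29 genes, not including Sqle, Fdps or Erlin2. The full element TCACNCCAC, searched on both strands, was in 1 of the 24 (4.17%) and in 1.36% of the 11904 tested genes with a window. The core CACNCCA, which that element contains, was in 7 of 24 (29.2%, against 20.8%): Acat2, Hmgcs1, Msmo1, Srebf2, Insig1, Insig2 and Erlin1. The NF-Y box CCAAT was in 20 of 24 (83.3%, against 42.8%), and the Sp1 box GGGCGG in 21 of 24 (87.5%, against 64.2%). All 4 genes that fell and had a window (Srebf2, Lss, Cyp51 and Dhcr7) held both of these boxes, and 1 of them, Srebf2, held the core. The windows of Lss (chr10:76531355-76531654, plus strand) and Cyp51 (chr5:4104648-4104947, minus strand), from RefSeq GRCm38.p6, are printed as examples of genes that fell and hold an NF-Y box, in capitals on either strand, without the core in these letters.
Lss: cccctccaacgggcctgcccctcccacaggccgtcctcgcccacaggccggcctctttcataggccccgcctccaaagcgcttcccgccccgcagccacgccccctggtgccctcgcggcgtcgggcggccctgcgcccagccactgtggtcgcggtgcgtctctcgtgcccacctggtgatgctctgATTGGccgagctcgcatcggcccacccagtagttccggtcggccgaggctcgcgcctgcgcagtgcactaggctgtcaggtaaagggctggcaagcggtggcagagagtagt
Cyp51: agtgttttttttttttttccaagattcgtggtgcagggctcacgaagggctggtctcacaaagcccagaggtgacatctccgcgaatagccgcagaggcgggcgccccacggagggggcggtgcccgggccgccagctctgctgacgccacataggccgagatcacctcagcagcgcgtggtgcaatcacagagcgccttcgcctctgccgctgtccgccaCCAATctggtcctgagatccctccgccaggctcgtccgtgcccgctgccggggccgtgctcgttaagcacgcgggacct

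MicroRNAs lower the mRNAs whose untranslated 3′ ends pair with their seed, bases 2 to 8 from the 5′ end. Mature sequences encoded by the deleted clusters, other than miR-23b, are given from RefSeq (GRCm38.p6) with the seed in capitals, and the 2 forms of miR-27 share theirs.
mmu-miR-23a-3p: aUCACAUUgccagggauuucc
mmu-miR-27a-3p: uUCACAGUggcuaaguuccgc
mmu-miR-27b-3p: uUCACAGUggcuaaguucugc
mmu-miR-24-3p: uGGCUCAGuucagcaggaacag
An 8-base site (the complement of the seed followed by A) for miR-23 was in 2 of the 29 genes (6.90%, against 7.54% of 14861 genes tested) and for miR-27 in 2 (6.90%, against 7.01%). The 6 genes that fell held no match of 7 or 8 bases to either seed. Among the 14861 genes, 17.6% held a 7-base match for miR-23 and 19.4% for miR-27. Few matches would thus be likely among any 6 genes.

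The 4 genes with an 8-base site for miR-23 or miR-27 were Erlin2, Ggps1, Sc5d and Mbtps2. Their sites are shown with flanking bases because Erlin2 was the gene that rose, and the site is in capitals.
Erlin2 miR-23: aaaaaggtctcAATGTGAAtatacttacat
Ggps1 miR-23: gaatgagctatAATGTGAAggcattgtttg
Sc5d miR-27: agacactgatcACTGTGAAttatcttgaat
Mbtps2 miR-27: caagagacaaaACTGTGAAcctcatattcc
The differences of Erlin2 and Ggps1, with miR-23 sites, were 0.28 and 0.06 on the deposited scale, while Sc5d and Mbtps2, with miR-27 sites, gave -0.39 and -0.28. A match is a description of the letters and not a measured site.

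Some of these genes share sequence with others. In 31-base words of the transcripts, 9 of the 29 shared over 10% with another annotated gene, and for these the split of reads between the genes is uncertain. Among the 6 that fell it was Fdps, which shared 24.6% with Gm43738 on the same strand. Acat2 shared 43.7% with Acat3, Mbtps2 28% with Yy2, and Idi1 18.4% with the pseudogene Gm13502. Fdft1 overlaps Ctsb, the cathepsin B gene, on the opposite strand by 774 exonic bases, and no source at hand says whether counting used the strand, so reads of the 2 cannot be told apart there. Ctsb averaged 332497 ± 21561 in controls and 264280 ± 18231 in knockouts (difference -0.33, adjusted p = 0.182).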

How the data were processed

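Poly(A) RNA of 8 macrophage samples was sequenced, and groups follow the genotype in the labels. Per the submitters' processing notes, FastQC, cutadapt, Salmon and DESeq2 were named and the build was mm10, with no versions or roles. The authors deposited 1 table of normalized counts (a signal, reads divided by library size factors) and 1 DESeq2 table of log2 fold changes (control over knockout) with their errors and statistics (scores), p-values and adjusted p-values. The smallest deposited value was 1 read in every library, so low genes carry no 0. Whole reads were recovered from the normalized counts for 100% of values within 0.01, and edgeR on them called 366 genes lower and 190 higher. Gene positions and 3′ ends are from the GENCODE annotation of GRCm38 (mm10).

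Differences were fitted with limma 3.58.1 (R 4.3.3; lmFit, eBayes with trend) on log2(value + 1) over genes with a mean of at least 10, two-sided, without covariates. A fold change on this scale understates that of low genes. Alternatives were pseudocounts of 0.5 and 5, no filter, a mean of at least 50, other scalings, array weights, edgeR's quasi-likelihood test and DESeq2 on recovered reads, a replicate block, and each library left out. The fit was tested on simulated data. The depth of 31789395 to 46621080 reads a library bounds counting error only.

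The named genes are all 29 members and some genes of each other pathway list. The latter were taken from the 2 with the smallest p, the most abundant, and those past the threshold. Not all genes so picked are named. Members, lists and tests were chosen with earlier results of these data known. Not every gene of the pathway, or of each list, is reported here, nor are sites of miR-24.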

Additional observations from a re-analysis of the deposited data

Results flagged for a closer look

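In 13 of 162 groups of 4 libraries (81 genes, each in both genotypes), 1 library stood far from the other three. Chance alone flags about 1 in 20 such groups. Among the sterol genes, Fdft1 was highest in control replicate 1, at 604 normalized counts with the next library at 540. Msmo1 was lowest in knockout replicate 1, at 1057 with the next library at 1263. Among the other control libraries, replicate 1 was highest for Nus1 (5149 normalized counts), Gramd1b (2934) and Sec23a (1324). Control replicate 2 was lowest for Npc1 (7825) and highest for S100a9 (19.3). Control replicate 4 was lowest for Rce1 (777) and Scd1 (1073). Among the knockouts, replicate 1 was lowest for Sec24b (2747) and highest for Ighm (23142). Knockout replicate 3 was lowest for Abca1 (22546) and highest for Ptprc (12887).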

How the results depend on the processing

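Both pseudocounts, no filter, the higher filter and edgeR left 6 of the 29 genes lower and 1 higher. DESeq2 on recovered reads gave 11 lower (891 lower and 666 higher among all genes). Array weights gave 9 lower among the 29 (534 lower and 397 higher among all genes). Quantile scaling gave 7 lower among the 29 (331 lower and 158 higher among all genes). Scaled to the same total, 244 of all genes were lower. On that scale 7 and 2 of the 29 were lower and higher without overlap (4.79% and 8.75% of all genes). Scaled to the general macrophage genes, 0 were lower and 5 higher among the 29 (59 and 4526 among all genes). Without overlap there were 0 lower and 8 higher (0.334% and 38.6% of all genes). On that scale 15 differences turned above 0: Acat2 0.26, Hmgcs1 0.16, Mvk 0.27, Pmvk 0.17, Mvd 0.053, Fdft1 0.10, Msmo1 0.053, Nsdhl 0.15, Ebp 0.23, Scap 0.29, Insig2 0.26, Mbtps1 0.34, Mbtps2 0.076, Stard4 0.15 and Erlin1 0.19. Mbtps1 also turned to 0.038 at the same total and 0.020 with quantile scaling. Of the other genes named, Npc1 0.091, Gramd1b 0.017, Lipa 0.13, Dhdds 0.16, Sec24b 0.22, Sel1l 0.13, Smpdl3a 0.10 and Ctsb 0.025 turned above 0 on the macrophage scale, and Srebf1 turned to -0.016 with array weights and ran from -0.015 (without control replicate 1) to 0.067 (without control replicate 4), with -0.014 without knockout replicate 2. Without 1 library, 3 to 5 were lower and 0 to 1 higher among the 29 (112 to 313 and 51 to 189 among all genes); the lowest member count was without knockout replicate 4 and the lowest count of all genes without control replicate 3. The core CACNCCA was in 7 promoters against 1 for the full element. Matches of 7 bases to miR-23 were in 6 genes against 2 (20.7% of the 29, and 17.6% of all genes searched). Of 816 alternatives for named genes, 678 kept direction and side of the threshold. The cause of these changes was not tested.

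Same-numbered libraries did not deviate together (correlations of -0.20, -0.20, -0.04 and -0.29), and whether equal numbers mark a shared litter or day is not stated in the labels used here, so they were not treated as pairs. With the number as a replicate block, 0 of the 29 were lower and 0 higher (7 and 0 of all genes), and no control correlated best with its own number. With 4 libraries a group the median SE over all genes was 0.11, which limits what differences could pass.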
